A study of Homo sapiens with 4 samples.

Results

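The ADAM sheddases described here are 9 genes of the deposited gene count table, ADAM8, ADAM9, ADAM10, ADAM12, ADAM15, ADAM17, ADAM19, ADAM28 and ADAMDEC1, taken by symbol from 60662 rows. All 9 were matched by 1 row each, 8 had counts in at least 1 library, and the same 8 passed the filter on low counts. RNA was sequenced from U937, a human cell line of the myeloid lineage, established from a histiocytic lymphoma. The 2 groups were untreated cells, cultured without PMA, and cells given 10 nM phorbol 12-myristate 13-acetate (PMA) for 72 h to become macrophage-like, with 1 library of each group from each of 2 lots of cells. Both groups grew in the same serum-containing medium, and U937 is 1 line that stands in for monocytes. PMA, a phorbol ester, is an activator of protein kinase C.

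ADAM proteins are zinc-dependent metalloproteinases anchored in the cell membrane. They cut the extracellular part off neighbouring membrane proteins, a step called ectodomain shedding, which releases cytokines, growth factors and soluble receptors. ADAM17 is the enzyme that releases tumour necrosis factor from monocytes and macrophages, and ADAM10 makes the first activating cut in Notch receptors. Phorbol esters are a classical trigger of shedding by ADAM17, which acts on the protein and need not change its mRNA. Other proteins decide where the enzymes go and how active they are: iRhoms carry ADAM17, tetraspanins of the TspanC8 group carry ADAM10, furin-type convertases remove the inhibitory prodomain, and tissue inhibitors of metalloproteinases (TIMPs) block the active site.

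Total counts were 35739833 to 54915928 per library. Levels are given as CPM, counts per 1000000 of the TMM-scaled library size, and group values as mean ± SD with n = 2 libraries. Where a gene had 0 counts its level could be as high as 3 counts, or 0.0474, 0.0695, 0.0920 and 0.0648 CPM in untreated lots 1 and 2 and PMA lots 1 and 2, which covers counting error only. The 9 monocyte and macrophage markers were all detected in both PMA libraries, but CSF1R was at 0 and 1.74 CPM without PMA. The most abundant, the integrin subunit ITGB2, was at 926 and 933 CPM without PMA and 10443 and 11978 CPM with it. CD33 and CEBPA had log2 fold changes of 0.058 and 0.11. Of the 9 markers, 2 rose and 0 fell in the edgeR test described below, beside 4.29% and 2.02% of all tested genes. LYZ, named after its values were seen, was at 136 and 904 CPM and then 210 and 126 CPM (edgeR adjusted p = 0.330). Its lots moved in opposite directions. Of 40 markers of 8 other cell types, 24 were at 0 in every library, among them the T cell genes CD3D and CD3E, the B cell gene MS4A1, all 5 erythroid genes and 5 of 6 fibroblast genes. PECAM1, PPBP and TRAC, which were listed as endothelial, megakaryocyte and T cell markers, were higher in both PMA libraries. PECAM1 was at 62.1 and 46.1 CPM without PMA and 1461 and 1931 CPM with it, PPBP at 0 and 5.14 and then 1776 and 569 CPM, and TRAC at 0.285 and 0 and then 7.33 and 26.3 CPM. The part of other cell types in the results below was not tested.

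Of the 9 genes, only ADAMDEC1 passed the test over all genes, and it was higher with PMA. With edgeR (quasi-likelihood test, Benjamini-Hochberg adjustment), 6.30% of the 16451 tested genes passed, 4.29% higher and 2.02% lower with PMA. In 7 of the 8 tested ADAM genes both PMA libraries were above both untreated libraries, as in 31.0% of all tested genes. In the other one, ADAM15, both were below, as in 29.4% of all tested genes. ADAM28 and ADAMDEC1 had no counts in untreated cells and entered the test through their PMA counts, so their place among the 7 was fixed by that. ADAM12, with 0 and 14 counts in untreated lots 1 and 2, also needed its PMA counts to pass the filter. Unadjusted p-values were under 0.05 for 6 of the 8, and for 27.0% of all tested genes. ADAM12, ADAM28 and ADAMDEC1 were among these 6, and among the 6 DESeq2 calls given below. The median log2 fold change of the 8 was 2.76, beside -0.00044 for all tested genes. ADAM12, ADAM28 and ADAMDEC1, which needed their PMA counts to pass the filter, had the largest values and so raised this median. It was unchanged with ADAM28 and ADAMDEC1 set at their lower bounds, because both stayed above the middle. The other tested members were at -0.45 (ADAM15), 1.25 (ADAM8), 1.71 (ADAM10), 2.23 (ADAM17) and 3.29 (ADAM9). Over the same 4 libraries, DESeq2 called 6 of the 8 higher and 0 lower, beside 13.2% and 10.4% of all genes with an adjusted p. The numbers were 4 and 0 with limma-voom (6.98% and 3.87% of all genes) and 1 and 0 in edgeR with the lot as a block (3.59% and 1.48%). The 1 gene called with the block was ADAM9, not ADAMDEC1. In bulk RNA, a change in the share of cells that express a gene and a change in RNA per cell cannot be told apart.

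**Figure D1:**
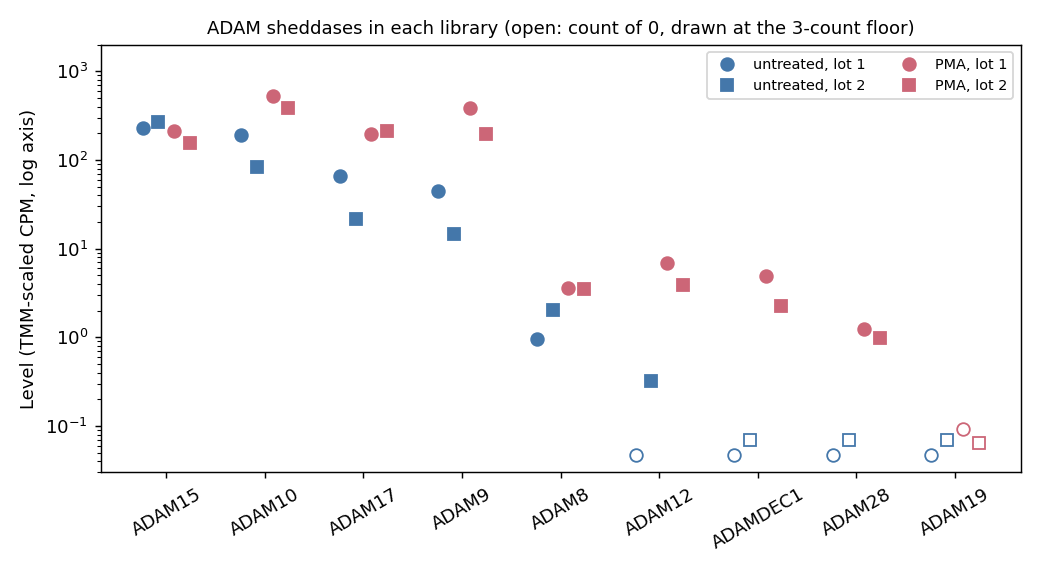
Level of each ADAM gene in each library, in TMM-scaled CPM on a log axis, with circles for lot 1 and squares for lot 2. Open symbols are counts of 0, drawn at the floor of 3 counts. ADAM15 is the only gene with both PMA libraries below both untreated libraries, and ADAM19 is at 0 throughout.

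ADAM17, ADAM10, ADAM9 and ADAM15 were the 4 sheddases with substantial counts in every library. ADAM17 (ENSG00000151694.14), the TNF convertase, was at 65.3 and 21.4 CPM in untreated lots 1 and 2 and at 197 and 211 CPM in PMA lots 1 and 2. Both PMA libraries were above both untreated ones, the PMA libraries lay close together, and the untreated lots differed 3.05-fold. The group values were 43.4 ± 31.0 and 204 ± 10.2 CPM, a log2 fold change of 2.23 ± 0.60 (SE) that did not pass the test (edgeR adjusted p = 0.0881). Within lots the ratio was 3.01-fold in lot 1 and 9.86-fold in lot 2. DESeq2 and limma-voom called ADAM17 (adjusted p = 0.00128 and 0.0441), within a range of 0.00128 to 0.238 over 15 alternatives. Without untreated replicate 1 it was 0.0155, but with 1 library left in a group the spread comes from the other group alone and the lone library is assumed to vary like it, here and for every left-out library below.

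ADAM10 (ENSG00000137845.15), the Notch and CD44 sheddase, was at 192 and 83.0 CPM in untreated cells and 521 and 381 CPM after PMA. It was the most abundant member by CPM in both PMA libraries, and the groups did not overlap. Its means were 138 ± 77.4 and 451 ± 99.2 CPM, with a log2 fold change of 1.71 ± 0.50 that did not pass (edgeR adjusted p = 0.104). The ratio was 2.71-fold in lot 1 and 4.59-fold in lot 2. It was called by DESeq2 (0.00671), the value without untreated replicate 1 was 0.0263 with the spread of the PMA libraries only, and the highest adjusted p over 15 alternatives was 0.404.

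ADAM9 (ENSG00000168615.12), a widely expressed sheddase that can cut ADAM10 itself, had the largest estimated difference among these 4. It was at 44.8 and 14.7 CPM in untreated cells and 385 and 196 CPM after PMA. In both groups lot 1 was the higher one, by 3.05-fold without PMA and 1.96-fold with it, so the ratio within lots was 8.59-fold and 13.4-fold. The log2 fold change was 3.29 ± 0.70 (edgeR adjusted p = 0.0611) and became 3.42 ± 0.36 with the lot as a block, where it passed (edgeR adjusted p = 0.0343). ADAM9 was called under 9 of 15 alternatives, with adjusted p-values from 6.88e-06 with DESeq2 to 0.128 without PMA replicate 1. Without untreated replicate 1 and without PMA replicate 2 it was 0.0229 and 0.0464.

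ADAM15 (ENSG00000143537.13), a sheddase whose human form carries an integrin-binding RGD motif, was the 1 member lower in both PMA libraries. It was at 229 and 270 CPM in untreated cells and 211 and 154 CPM after PMA. The highest PMA value was close below the lowest untreated value. The mean with PMA was 182 ± 40.5 CPM, the log2 fold change was -0.45 ± 0.32 (edgeR adjusted p = 0.448), and no alternative called it. PMA was 1.08-fold lower in lot 1 and 1.76-fold lower in lot 2.

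**Figure D2:**
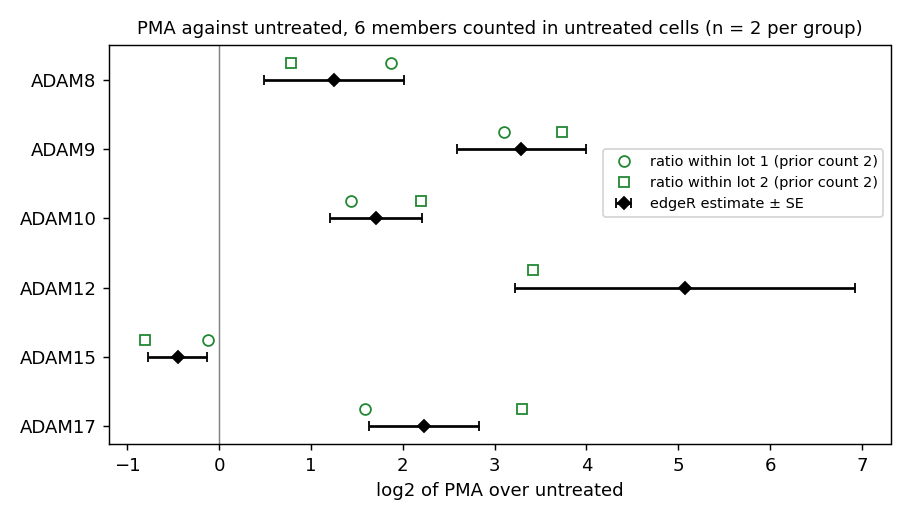
Log2 of PMA over untreated for the 6 ADAM genes with counts in untreated cells. Diamonds are edgeR estimates with their standard error, and open circles and squares are the ratios within lots 1 and 2, with no ratio for ADAM12 in lot 1, where the untreated count is 0. ADAM9, ADAM10 and ADAM17 have a larger ratio in lot 2, and ADAM8 in lot 1.

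The DNA before the starts of these genes is shown for ADAM17 and ADAM10, which were higher in both PMA libraries, for ADAM15, which was lower, and for ADAM12, which was near 0 without PMA. Each sequence is the 250 bases before the annotated start (RefSeq, GRCh38.p14), 5′ to 3′ on the gene's strand. Capitals mark the GC box GGGCGG, which binds Sp-type factors, and the E-box CACGTG, searched on both strands.
ADAM17, chr2:9555831-9556080, minus strand: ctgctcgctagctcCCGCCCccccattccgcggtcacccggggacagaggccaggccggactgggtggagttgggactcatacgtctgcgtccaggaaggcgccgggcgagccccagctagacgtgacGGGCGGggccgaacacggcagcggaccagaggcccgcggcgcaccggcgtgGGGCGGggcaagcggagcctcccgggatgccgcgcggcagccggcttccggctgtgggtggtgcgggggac
ADAM10, chr15:58749708-58749957, minus strand: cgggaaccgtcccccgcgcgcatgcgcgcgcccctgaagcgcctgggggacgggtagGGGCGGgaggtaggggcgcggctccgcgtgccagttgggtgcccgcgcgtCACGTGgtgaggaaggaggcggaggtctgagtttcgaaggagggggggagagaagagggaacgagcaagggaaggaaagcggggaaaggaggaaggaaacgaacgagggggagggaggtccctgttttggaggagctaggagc
ADAM15, chr1:155051066-155051315, plus strand: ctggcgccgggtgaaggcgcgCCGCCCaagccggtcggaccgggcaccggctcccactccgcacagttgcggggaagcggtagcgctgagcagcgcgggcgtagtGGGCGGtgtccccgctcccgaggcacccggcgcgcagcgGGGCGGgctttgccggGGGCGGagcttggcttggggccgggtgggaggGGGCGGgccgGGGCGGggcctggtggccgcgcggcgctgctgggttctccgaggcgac
ADAM12, chr10:126388478-126388727, minus strand: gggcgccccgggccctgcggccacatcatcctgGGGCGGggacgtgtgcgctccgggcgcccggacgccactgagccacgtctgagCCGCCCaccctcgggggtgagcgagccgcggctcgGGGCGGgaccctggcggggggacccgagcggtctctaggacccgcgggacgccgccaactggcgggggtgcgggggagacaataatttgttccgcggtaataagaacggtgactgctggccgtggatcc
In these 250 bases the GC box was found 3 times for ADAM17, once for ADAM10, 6 times for ADAM15 and 3 times for ADAM12, and 42.6% of 35116 promoters hold at least 1. ADAM8 also held 3 and ADAM19 none. The E-box was found before ADAM10, 143 bases from the start, and 6.34% of promoters hold it. The AP-1 motif TGANTCA, the sequence through which phorbol esters were first found to act on promoters, was in none of the 6 member promoters that matched (6.57% of all promoters hold it). The cyclic AMP response element TGACGTCA was in none of them either (1.65% of all promoters). The ADAM15 window had the highest GC content of the 6, at 79.6%, and ADAM10 the lowest, at 68.4%, beside a median of 58.0% for all promoters. These matches describe the letters only, and say nothing about binding in these cells.

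The less abundant members were ADAM8, ADAM12, ADAM28 and ADAMDEC1. ADAM8 (ENSG00000151651.16), a leukocyte sheddase also known as CD156, had 60 and 88 counts without PMA and 117 and 163 with it. In CPM this was 0.949 and 2.04 without PMA and 3.59 and 3.52 with it. The PMA libraries were nearly equal and above both untreated ones, while the untreated lots differed 2.15-fold with lot 2 the higher. The log2 fold change of 1.25 ± 0.76 did not pass the test (edgeR adjusted p = 0.373), and no alternative called it.

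ADAM12 (ENSG00000148848.14), known from fusing myoblasts and osteoclasts, had 0 and 14 counts in untreated lots 1 and 2 and 224 and 180 counts in PMA lots 1 and 2. These were 0 and 0.324 CPM against 6.87 and 3.89 CPM, and in lot 2, where both libraries had counts, PMA was 12.0-fold higher. The fitted log2 fold change was 5.07 ± 1.85 and the spread of the untreated lots was large beside it (edgeR adjusted p = 0.164). DESeq2 called it (0.0126), and the value without untreated replicate 2 was 0.0283, a fit that leaves the untreated library at 0 alone. The highest value over 14 alternatives was 0.369.

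ADAMDEC1 (ENSG00000134028.14), a secreted relative that lacks a membrane anchor and is known from macrophages and dendritic cells, had 0 counts in both untreated libraries and 162 and 104 counts with PMA. Its level with PMA was 4.97 and 2.25 CPM. Their mean was at least 61.7-fold above the mean floor of 3 counts per untreated library, and the lowest PMA value at least 32.4-fold above the highest floor. It rose by the test over all genes (edgeR adjusted p = 0.0444). It was not called when the lot was a block (0.0734), nor without PMA replicate 1 (0.116), within a range of 4.99e-06 to 0.116 over 14 alternatives.

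ADAM28 (ENSG00000042980.13), first described in lymphocytes, was likewise at 0 in both untreated libraries and had 40 and 45 counts with PMA. That is 1.23 and 0.973 CPM, with a mean at least 18.8-fold above the mean floor. It did not pass (edgeR adjusted p = 0.0659), while DESeq2 (0.00863) and limma-voom (0.0479) called it and the highest value over 14 alternatives was 0.313. ADAM19 (ENSG00000135074.15), a sheddase of neuregulins, was listed at 0 in all 4 libraries and was not tested. A listed 0 can be a failed estimate. CYFIP2, which overlaps ADAM19 on the opposite strand in GENCODE release 29, had 5289 and 1935 counts without PMA and 234 and 45 with it. Whether strand was used in counting is not stated, so reads of overlapping genes on opposite strands cannot be told apart. ADAM17 overlaps IAH1 in this way, which was at 56.1 and 59.0 CPM without PMA and 31.3 and 53.8 CPM with it. No overlapping gene of the other members had more than 62 counts in any library.

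Levels of the members were set side by side per length. Per kilobase of the longest annotated transcript, ADAM15 was first in untreated cells at 50.7 and 59.8 CPM per kb in lots 1 and 2, above ADAM10 at 16.8 and 7.26. ADAM10, ADAM9 and ADAM17 followed in that order with ranges that overlapped. ADAM8, at 0.289 and 0.622 CPM per kb, was far below them. With PMA, ADAM9 was first at 100 and 51.2 CPM per kb. ADAM15, at 46.7 and 34.1, and ADAM10, at 45.6 and 33.3, did not differ beyond their spread, and ADAM17 followed at 29.9 and 32.1. ADAMDEC1 (2.12 and 0.957) overlapped ADAM8 (1.09 and 1.07), and ADAM12 and ADAM28 were lower. As a share of the summed level per kb of all 9 genes, ADAM15 made up 56.7% and 79.9% in untreated lots 1 and 2 and 20.6% and 22.2% in the PMA lots. ADAM9 made up 13.0% and 5.11% without PMA and 44.2% and 33.4% with it. ADAM17 made up 11.1% and 4.36% without PMA and 13.2% and 21.0% with it. These shares were not tested.

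The order with PMA depends on the length used. Divided by the mean length of a gene's annotated transcripts, ADAM10 was first with PMA, at 47.1% and 48.5% of the family, and ADAM9 had 23.7% and 17.0%. ADAM15 still led in both untreated libraries, at 45.5% and 70.5%, beside 18.1% and 18.5% in the PMA libraries. ADAM10 has annotated transcripts of up to 11.4 kb with a mean of 1.62 kb, and the transcripts present in these cells were not measured.

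**Figure D3:**
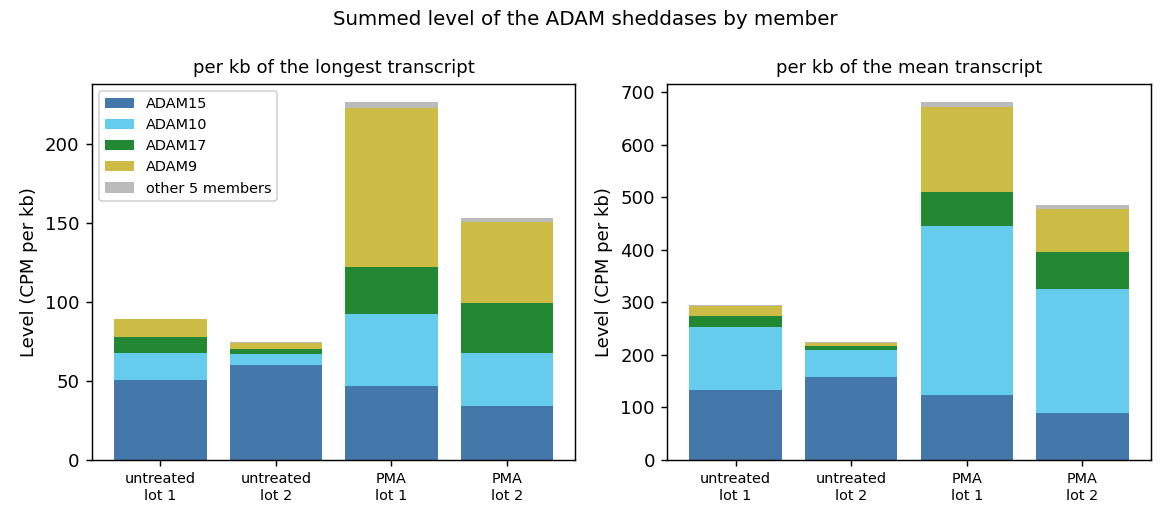
Summed level of the 9 ADAM genes in each library, in CPM per kb, stacked by gene, with the longest annotated transcript as the length on the left and the mean transcript length on the right. ADAM15 takes the largest share in both untreated libraries under either length, and its share is smaller in both PMA libraries.

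Of the 4 abundant members, ADAM15 was the one whose untreated lots differed least. ADAM9, ADAM17 and ADAM10 were 3.05-fold, 3.05-fold and 2.32-fold higher in lot 1 than in lot 2, whereas ADAM15 was 1.18-fold and ADAM8 2.15-fold higher in lot 2. Among 14074 genes with at least 10 counts in both untreated libraries, 7.03% had a larger excess in lot 1 than ADAM9, 7.08% than ADAM17 and 13.2% than ADAM10. Transcript length moved with the lots: the median log2 difference of lot 1 from lot 2 in untreated cells was -0.44 in the shortest of 4 equal classes of genes by transcript length and 0.61 in the longest, which holds ADAM10 and ADAM17. The difference between PMA and untreated cells also moved with length, with a median log2 fold change of -0.64 in the shortest class and 0.27 in the longest. With the trend of each library with length removed, in an alternative added after the data had been seen, the log2 fold change was 1.26 ± 0.29 for ADAM10 (edgeR adjusted p = 0.0614), 1.98 ± 0.42 for ADAM17 (0.0543), 3.20 ± 0.62 for ADAM9 (0.0462) and -0.72 ± 0.35 for ADAM15 (0.269). Only ADAM9 and ADAMDEC1 (0.0393) were called in it, where 5.12% of all genes were called higher and 2.97% lower. With the block as well, ADAM9 alone was called (0.0393), beside 2.99% of all genes called higher and 1.30% lower. Mitochondrial genes took 3.66% and 8.58% of counts in untreated lots 1 and 2 and 2.81% and 5.99% in the PMA lots, and the part of this share in these values was not tested.

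**Figure D4:**
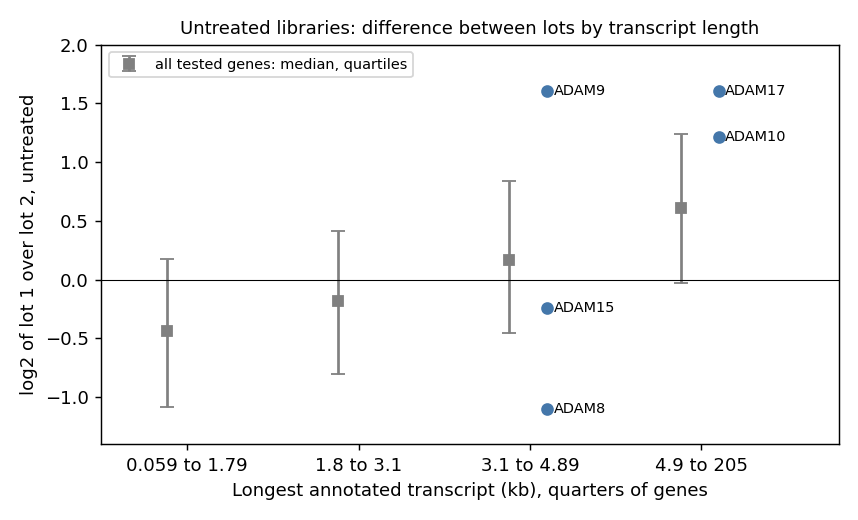
Log2 of lot 1 over lot 2 in untreated cells, by 4 equal classes of longest annotated transcript in kb. Squares and bars are the median and quartiles of all genes with at least 10 counts in both libraries, and dots are the ADAM genes that meet this minimum. ADAM9, ADAM17 and ADAM10 lie above the median of their class, and ADAM8 and ADAM15 below it.

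Relative to the deposited results, the authors' deposited table calls ADAM9 (log2 ratio 3.27, q-value 0.00150), ADAM28 (q-value 0.0203) and ADAMDEC1 (q-value 0.000893), 3 of the 9. ADAM28 and ADAMDEC1 had no counts in untreated cells. The table calls 2.22% of all 60662 rows, 1.48% as higher with PMA. These rows include 33746 with 0 counts in every library, so this share is not over tested genes as above. In the authors' deposited table ADAM17 has a log2 ratio of 2.22 and a q-value of 0.0705, ADAM10 1.70 and 0.224, and ADAM15 -0.47 and 1. The table was made from the same libraries and is no independent measurement.

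The carriers and activators of ADAM17 came next. Of its 3 listed partners, 1 rose and 0 fell, beside 4.29% and 2.02% of all tested genes. RHBDF2 (iRhom2), which carries ADAM17 to the surface of myeloid cells, was at 21.3 and 18.5 CPM in untreated cells and 358 and 495 CPM after PMA. The untreated lots lay close together and far below both PMA libraries (log2 fold change 4.42 ± 0.37, edgeR adjusted p = 0.0186). Its relative RHBDF1 (iRhom1) was scarce, at 0.253 and 0 CPM and then 1.38 and 3.11 CPM (edgeR adjusted p = 0.242). FRMD8, which stabilises iRhom complexes, was at 11.6 and 25.8 CPM and then 42.1 and 59.1 CPM (edgeR adjusted p = 0.167). Of 4 convertases that can remove ADAM prodomains, beside the same shares of all tested genes, 1 rose and 0 fell. This was FURIN, at 115 ± 13.8 and 583 ± 63.3 CPM (2.34 ± 0.31, edgeR adjusted p = 0.0277), whose call was lost without PMA replicates 1 and 2 in turn (0.0999 and 0.0749).

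Of the 6 TspanC8 tetraspanins, which escort ADAM10 out of the endoplasmic reticulum, 1 rose and 0 fell, beside 4.29% and 2.02% of all tested genes. TSPAN33 was at 44.1 and 46.6 CPM in untreated cells and 292 and 222 CPM after PMA (2.50 ± 0.33, edgeR adjusted p = 0.0277). It was not called without PMA replicate 1 (0.118) or replicate 2 (0.0725). TSPAN14 was the most abundant in untreated cells, at 121 and 166 CPM, and was at 246 and 261 CPM with PMA (edgeR adjusted p = 0.180). TSPAN17 was at 27.3 and 66.4 CPM and then 134 and 132 CPM (edgeR adjusted p = 0.138). For TSPAN5 and TSPAN10 both PMA libraries were below both untreated ones. TSPAN5 was at 17.9 ± 5.66 and 11.9 ± 2.58 CPM, TSPAN10 at 6.59 ± 0.966 and 3.48 ± 2.23 CPM, and TSPAN15 stayed at 2.24 CPM or below. None of these 3 passed the test (edgeR adjusted p = 0.498, 0.476 and 0.465).

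TIMP1, TIMP2 and TIMP4 rose, where 4.29% of all tested genes did, and the fourth TIMP was at 0. TIMP4 had no counts in untreated cells, so its direction was fixed by its entering the test. TIMP1, which can inhibit ADAM10, was at 124 and 342 CPM in untreated cells and 4977 and 6364 CPM after PMA (4.60 ± 0.61, edgeR adjusted p = 0.0281). TIMP2 was at 59.3 ± 16.2 and 303 ± 16.1 CPM (edgeR adjusted p = 0.0334), and lost its call without PMA replicates 1 and 2 in turn (0.118 and 0.108). TIMP4 was at 0 without PMA and reached 3.04 and 2.68 CPM with it, its lowest value at least 38.6-fold above the highest floor (edgeR adjusted p = 0.0432), and it was not called with the lot as a block (0.0838) or without PMA replicates 1 and 2 in turn (0.0893 and 0.0865). TIMP3, the TIMP known as the main inhibitor of ADAM17, was listed at 0 in all 4 libraries, and the highest level those counts allow is 0.0920 CPM.

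**Figure D5:**
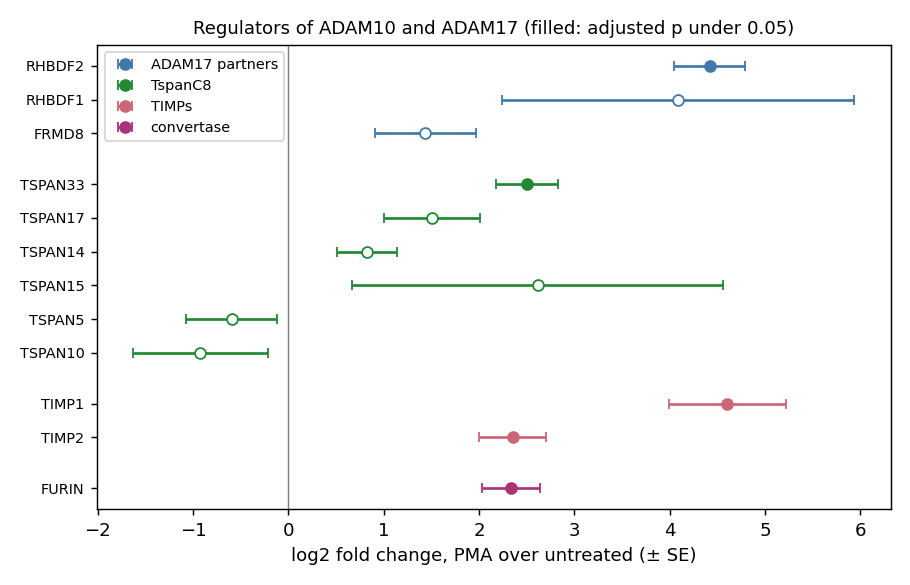
Log2 fold change of PMA over untreated cells with its standard error for genes that regulate ADAM10 and ADAM17, by group, with filled symbols for an adjusted p under 0.05. RHBDF2, TSPAN33, TIMP1, TIMP2 and FURIN are filled, and TSPAN5 and TSPAN10 lie below 0 and are not.

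Of 17 proteins that bind the cytoplasmic tails of ADAMs or are kinases tied to them, 15 were tested, 3 rose and 0 fell. Of all tested genes, 4.29% rose and 2.02% fell. The median log2 fold change of the 15 was 0.88. The sorting nexin SNX9 was at 15.6 ± 4.43 and 262 ± 65.4 CPM (4.07 ± 0.42, edgeR adjusted p = 0.0224). The podosome scaffold SH3PXD2B (TKS4) was at 4.85 ± 2.83 and 140 ± 48.0 CPM (4.85 ± 0.64, edgeR adjusted p = 0.0277), and the kinase SRC at 4.07 ± 1.19 and 60.0 ± 1.02 CPM (3.88 ± 0.44, edgeR adjusted p = 0.0244). The adaptor GRB2, the most abundant of the list, was at 278 and 258 CPM and then 420 and 371 CPM (edgeR adjusted p = 0.285). Among 9 integrin subunits that can bind ADAM disintegrin domains, 8 were tested, 2 rose and 0 fell, beside the same shares of all tested genes. ITGB7, with 5 and 1 counts without PMA, entered the test through its PMA counts, so that its direction was fixed. ITGB7 was at 0.0791 and 0.0232 CPM and then 402 and 697 CPM (edgeR adjusted p = 0.0148). ITGB5 was at 1.11 and 9.13 CPM and then 522 and 346 CPM (edgeR adjusted p = 0.0470), and was not called with the lot as a block (0.0572), with the length trend removed (0.0524), or with RLE or upper-quartile factors (0.0502 and 0.0543). ITGA5, the most abundant over the 4 libraries, was at 495 ± 17.5 and 911 ± 22.9 CPM (edgeR adjusted p = 0.115). With PMA the mean of ITGA6, named after its values were seen, was higher, at 160 and 51.3 CPM and then 1198 and 801 CPM (edgeR adjusted p = 0.0547, and 0.0373 when the lot was a block).

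Known substrates were counted by the enzyme they are usually assigned to, and several are cut by more than 1. Of 24 ADAM17 substrates, 17 were tested, 7 rose and 0 fell, beside 4.29% and 2.02% of all tested genes, and their median log2 fold change was 2.12. Of the 7, IL1R2, TREM2 and CD163 (named after its values were seen) had no counts in untreated cells and entered the test through their PMA counts, so that their direction was fixed. TNF and CSF1R, given below, also needed their PMA counts to pass the filter. The median is the value of TNF itself, and IL1R2, TREM2, CD163 and CSF1R lie above it, so such genes raised it. JAM3, named after its values were seen, was at 0 with PMA and entered through its untreated counts. HBEGF, a ligand of the EGF receptor, was at 6.70 and 7.02 CPM in untreated cells and 164 and 262 CPM after PMA (4.96 ± 0.43, edgeR adjusted p = 0.0189). The TNF receptor TNFRSF1B was at 77.9 ± 20.7 and 921 ± 175 CPM (3.56 ± 0.38, edgeR adjusted p = 0.0229). The decoy receptor IL1R2 and the lipid receptor TREM2 were at 0 without PMA and reached 34.2 and 15.8 CPM and 270.5 and 286 CPM with it, their lowest values at least 227-fold and 3893-fold above the highest floor (edgeR adjusted p = 0.0253 and 0.0148). The next 3 genes were chosen after their values were seen. TNF itself was low, at 0.0474 and 2.48 CPM without PMA and 2.88 and 8.02 CPM with it (edgeR adjusted p = 0.488). The interleukin 6 receptor IL6R was at 180 and 110 CPM and then 164 and 93.4 CPM (-0.17 ± 0.44, edgeR adjusted p = 0.850), with the lots further apart than the groups. The colony-stimulating factor receptor CSF1R was at 0 and 1.74 CPM and then 667 and 332 CPM (edgeR adjusted p = 0.0657, and 0.0126 to 0.0966 over 15 alternatives).

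Of 23 ADAM10 substrates, 16 were tested, 6 rose and 0 fell, beside 4.29% and 2.02% of all tested genes. The median log2 fold change of the 16 was 1.37. TREM2, also counted with the ADAM17 substrates, is among the 6, and its direction was fixed by its entering the test. FCER2, given with the next list, is among them too. NOTCH1 was at 43.4 and 41.8 CPM in untreated cells and 355 and 363 CPM after PMA (3.07 ± 0.30, edgeR adjusted p = 0.0221). The hyaluronan receptor CD44 was at 190 ± 77.4 and 1734 ± 305 CPM (3.19 ± 0.43, edgeR adjusted p = 0.0281), and the membrane chemokine CXCL16 at 8.78 ± 2.49 and 139 ± 29.9 CPM (3.98 ± 0.43, edgeR adjusted p = 0.0229). The checkpoint receptor HAVCR2 (TIM-3) was at 1.63 and 0.347 CPM and then 139 and 144 CPM (edgeR adjusted p = 0.0264). Also chosen after their values were seen, NOTCH2 was at 242 and 58.1 CPM and then 499 and 324 CPM (edgeR adjusted p = 0.280), and the amyloid precursor APP at 274 and 128 CPM and then 161 and 135 CPM (edgeR adjusted p = 0.597). The membrane chemokine CX3CL1 was at 0 throughout.

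Of 12 substrates assigned to ADAM8, ADAM9, ADAM15 or ADAM28, 6 were tested, 3 rose and 0 fell, beside 4.29% and 2.02% of all tested genes. Among the 3 was HBEGF, given above. The IgE receptor FCER2 (CD23) was at 100 ± 22.2 and 368 ± 81.3 CPM (1.87 ± 0.35, edgeR adjusted p = 0.0499). It was not called with the lot as a block (0.0702), without untreated replicate 1 (0.0504), without PMA replicates 1 and 2 in turn (0.285 and 0.143), and with RLE and upper-quartile factors (0.0545 and 0.0655). VWF, a substrate of ADAM28 that entered the test through its PMA counts, was at 0 without PMA and reached 153 and 496 CPM with it (edgeR adjusted p = 0.0236). The lowest PMA value was at least 2201-fold above the highest floor, and the PMA libraries differed widely.

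After shedding, gamma-secretase cuts the remaining membrane stub, as in Notch signalling. Of its 6 subunit genes, 1 rose and 0 fell, beside 4.29% and 2.02% of all tested genes. PSEN2 was at 28.9 ± 9.26 and 119 ± 3.11 CPM (2.04 ± 0.38, edgeR adjusted p = 0.0490), and was not called with the lot as a block (0.0590), without PMA replicates 1 and 2 in turn (0.232 and 0.220), or with RLE and upper-quartile factors (0.0530 and 0.0649). NCSTN, the most abundant subunit, was at 168 ± 5.18 and 449 ± 36.6 CPM (edgeR adjusted p = 0.0549). Of 13 Notch targets, further receptors and ligands, 6 were tested and edgeR called none in either direction. Of those 6, 3 had an unadjusted p under 0.05, where 27.0% of all tested genes did: DLL1, which was higher, and, named after their values were seen, NRARP and JAG1, which were lower. NRARP, a Notch target, was at 4.59 and 4.63 CPM and then 0.736 and 1.17 CPM (edgeR adjusted p = 0.120). The ligand JAG1 was at 36.5 and 6.72 CPM and then 4.35 and 3.37 CPM (edgeR adjusted p = 0.161). The ligand DLL1 was at 10.9 and 6.86 CPM and then 33.8 and 42.0 CPM (2.09 ± 0.45, edgeR adjusted p = 0.0610, and 0.000121 with DESeq2).

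Among other sheddases and relatives, the membrane-type matrix metalloproteinase MMP14 was at 1.22 and 1.13 CPM in untreated cells and 609 and 672 CPM after PMA (9.08 ± 0.40, edgeR adjusted p = 0.0148). The intramembrane protease SPPL2A, which cuts the TNF stub, was at 33.5 ± 8.72 and 199 ± 50.3 CPM (edgeR adjusted p = 0.0348, and 0.144 and 0.0748 without PMA replicates 1 and 2 in turn). These were the 2 of 5 tested genes in a list of 6 that rose, and 0 fell, beside 4.29% and 2.02% of all tested genes. Of 12 other ADAM genes, 10 were at 0 in every library. ADAM22, which has no protease activity, was the most abundant of the rest, at 9.11 and 3.82 CPM without PMA and 1.87 and 2.85 CPM with it (edgeR adjusted p = 0.281). Of 19 ADAMTS genes, the secreted relatives, 11 were at 0 in every library, 5 were tested and edgeR called none. Of those 5, 3 were lower in both PMA libraries and 2 higher, where 29.4% and 31.0% of all tested genes were. ADAMTS6, named after its values were seen, is 1 of the 2 higher and needed its PMA counts to pass the filter. Of the 5, 1 had an unadjusted p under 0.05, where 27.0% of all tested genes did. This was ADAMTS17, named after its values were seen, at 0.791 and 1.25 CPM and then 0 (edgeR adjusted p = 0.0734), which entered the test through its untreated counts. ADAMTS7 was the most abundant of the tested ones over the 4 libraries, at 4.22 ± 0.656 and 6.27 ± 0.849 CPM (edgeR adjusted p = 0.573).

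The genes with the most similar pattern were sought for the 3 members with the smallest p, as the smallest distance between centred log2 CPM over the 4 libraries. For ADAMDEC1 they were IL19 and TP53INP1 (distance 0.0649 and 0.192), both at 0 without PMA and at 5.06 and 2.38 and at 4.39 and 1.95 CPM with it. Both passed the test (edgeR adjusted p = 0.0427 and 0.0480) and neither did without PMA replicate 1 (0.107 and 0.144). For ADAM9 they were LINC01359 (0.264), which stayed below 0.859 CPM, and the fatty acid ligase ACSL4 (0.269), at 141 and 40.2 CPM and then 980 and 623 CPM. For ADAM28 they were UNC13A and FHDC1 (0.0887 and 0.120), both at 0 without PMA and at 1.26 CPM or below with it. With 4 libraries many genes share such a profile, so these are descriptions only.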

How the data were processed

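RNA of 4 U937 libraries was analysed, 2 untreated and 2 with PMA, 1 of each per lot. Libraries were made from poly(A) RNA for an Ion Proton sequencer, per the labels' protocols. HISAT2 2.1.0 and StringTie 2.1.1 appear in the submitters' processing notes, with no roles. The genome build, annotation, counter and use of strand are not stated there. The authors deposited estimated counts per gene, which are whole numbers. Their second deposited table holds a signal (counts times 1 factor per library), log2 ratios and log2 mean levels, p-values and q-values, a rank score, and the authors' calls. Which test gave them is not stated.

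Counts were rounded, filtered with filterByExpr by group (16451 genes of 60662 left) and scaled with TMM. Groups were compared with edgeR 4.0.16 (R 4.3.3), quasi-likelihood test without a block, Benjamini-Hochberg adjustment over all tested genes and a threshold of 0.05. Each standard error was derived from the F statistic and the fold change. Log2 CPM used a prior count of 2. The lot number in the titles pairs libraries, and deviations from group means of same-lot libraries correlated at 0.154 across genes. Nothing says that lots were cultured apart, so p-values reflect only how these libraries vary, which can be technical variation. Alternatives were RLE and upper-quartile factors, 2 other filters, DESeq2 1.42.0, limma-voom (limma 3.58.1), the lot as a block, summed symbols, other library sizes, a threshold of 0.01, leaving out each library and, added after the data were seen, a length offset alone and with the block. Transcript lengths and overlaps came from GENCODE release 29, which may not be the authors' annotation (58489 identifiers matched). Promoters are from RefSeq (6 of 9 members matched). The edgeR fit was tested on simulated data, with 50 of the more abundant genes changed up or down at each fold. It called 0 of 50 at 2-fold, 5 at 4-fold, 28 at 8-fold and 36 at 16-fold. Only these genes were changed among 15492 tested, a smaller share than the 6.30% of tested genes that passed in the data. The adjustment depends on that share. Real changes of such sizes may be missed, at a rate that the simulation does not give.

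The members and lists were chosen with earlier results of these data known. The text names all members, from each list the genes past the threshold (the 4 with the smallest p where more than 5), its most abundant gene, and all ADAM17 partners, TspanC8 tetraspanins and TIMPs. Other names are marked where they appear, and cell markers, overlapping genes and similar genes are named as such.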

Additional observations from a re-analysis of the deposited data

Results flagged for a closer look

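The ratio of PMA to untreated cells for APP, an ADAM10 substrate, had opposite signs in the lots, at -0.77 on the log2 scale in lot 1 and 0.082 in lot 2. The same held for the lysozyme gene LYZ, a monocyte marker, at 0.63 in lot 1 and -2.85 in lot 2. These differences between lots were not tested. Groups of 2 libraries are too small for a check of single outlying values.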

How the results depend on the processing

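Of the 9 ADAM genes, 1 was called higher in the main analysis, where 4.29% of all tested genes were. The number was 2 with no filter (782 of all genes higher) and 6 with DESeq2 (13.2% of all genes with an adjusted p). It was 4 with limma-voom (6.98% of all genes) and 2 with the length offset (5.12%). At an adjusted p under 0.01 it was 0, as it was over all genes. None of the 9 was called lower in any alternative. Over all genes, 705 were higher and 332 lower. DESeq2 gave 2127 and 1684, limma-voom 1149 and 636, an adjusted p under 0.01 gave 0 and 0, a filter of 5 CPM in 2 libraries 721 lower, and the block with the length offset 214 lower. Leaving out 1 library gave 424 to 1830 higher and 79 to 1085 lower. With the lot as a replicate block 591 were higher and 244 lower, and 1 ADAM gene was higher. The block changed the calls of ADAM9, ADAMDEC1, FCER2, ITGB5, PSEN2 and TIMP4 given in the report and of ITGA6 (edgeR adjusted p = 0.0373). Among the similar genes it changed those of IL19, TP53INP1 and ACSL4 (edgeR adjusted p = 0.0719, 0.0795 and 0.0391). It changed no other call among the named genes that were followed over the alternatives. The log2 fold change of IL6R ranged from -0.70 (PMA replicate 1 left out) to 0.19 (PMA replicate 2 left out), with 0.17 when untreated replicate 1 was left out. That of LYZ ranged from -2.49 (untreated replicate 1 left out) to 0.31 (untreated replicate 2 left out). That of APP ranged from -0.89 (untreated replicate 2 left out) to 0.15 (untreated replicate 1 left out). With the mean transcript length, 7 of 16 places in the order of levels changed. The cause of these changes was not tested. Counts of 60 to 163 for ADAM8 and of 40 and 45 for ADAM28 limit their precision. Fits without 1 library take the spread from the group that keeps 2 libraries.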
